A study of Mus musculus with 2 samples.

Results

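The voltage-gated sodium and calcium channel genes are 30 genes that encode the pore-forming alpha subunits and the auxiliary subunits of these channels, and they were chosen by name in the deposited count tables. Of the 30, 26 had at least 1 read, out of 18497 annotated genes with a read. The data come from long-read RNA sequencing of hippocampus, which the labels call a layer of it, from female B6CASTF1/J mice of 2 months. That strain is the first-generation cross of a C57BL/6J and a CAST/EiJ parent, and the labels give no treatment. There was 1 group with 2 libraries, made from 2 µg of RNA each and numbered biological replicates 1 and 2. The labels give the libraries different tissue samples under 1 donor entry and do not plainly say that they came from separate animals, so every spread between them may be technical.

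Voltage-gated sodium channels open on depolarization and carry the upstroke of the action potential. Their large alpha subunit forms the pore, and small beta subunits tune its gating and its place in the membrane. Voltage-gated calcium channels turn depolarization into calcium entry, which drives transmitter release, gene regulation and burst firing. They are grouped by their alpha-1 subunit into L, P/Q, N, R and T types, and in all but the T type the cytoplasmic beta and the mostly extracellular alpha-2-delta subunits control delivery to the membrane. The messages of the alpha subunits are among the longest in neurons and are spliced in many ways, and a long read can follow several splice choices on 1 molecule.

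Levels are given in CPM, counts per 1000000 reads not on spike-ins, from 826596 such reads in replicate 1 and 745492 in replicate 2, so that 1 read equals 1.21 and 1.34 CPM. In runs that left some models out, CPM was per 1000000 of the reads kept, so 1 read counted for more. Values of those runs are not on the scale of the main run. A gene without a read may still be at up to 3.63 CPM in replicate 1 and 4.02 CPM in replicate 2, the level of 3 reads. Each read stands for 1 cDNA, so the values were not divided by transcript length, and the annotated length is given beside the level where levels of different genes are set side by side. In bulk tissue, fewer cells of a type and less RNA per cell cannot be told apart. All 8 pan-neuronal markers were present in both libraries, with sums of 5705 and 5736 CPM, as were the 6 markers of CA1 and CA3 pyramidal cells (802 and 810 CPM) and the 5 of dentate granule cells (410 and 499 CPM). Astrocyte markers summed to 1885 and 2044 CPM and oligodendrocyte markers to 2492 and 2728 CPM, with all 6 of each present, and the part of any cell type in the channel levels was not tested. The 4 markers of skeletal muscle summed to 9.68 and 8.05 CPM, with Myh1 and Tnnt3 at 0. Of the 4 sensory ganglion markers, Prph and Calca were at 0 and the sums were 2.42 and 0 CPM, and the 3 retina markers were all at 0.

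The 30 genes together had 663 reads in replicate 1 and 674 in replicate 2, or 802 and 904 CPM. Of them, 23 were read in both libraries, 3 in replicate 1 only and 4 in neither. The mean reached 10 CPM for 18 (60%) and 100 CPM for 2, Scn8a and Scn3b. The median over the 30 was 16.9 ± 0.782 CPM (SD, n = 2), against 19.1 ± 0.408 CPM over the 14730 protein-coding genes with a read, a set that by its making holds no gene at 0. In that set 63.9% reached 10 CPM. Over all 22028 annotated protein-coding genes, 7298 of them without a read, the median was 5.10 ± 0.372 CPM and 42.7% reached 10 CPM.

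**Figure D1:**
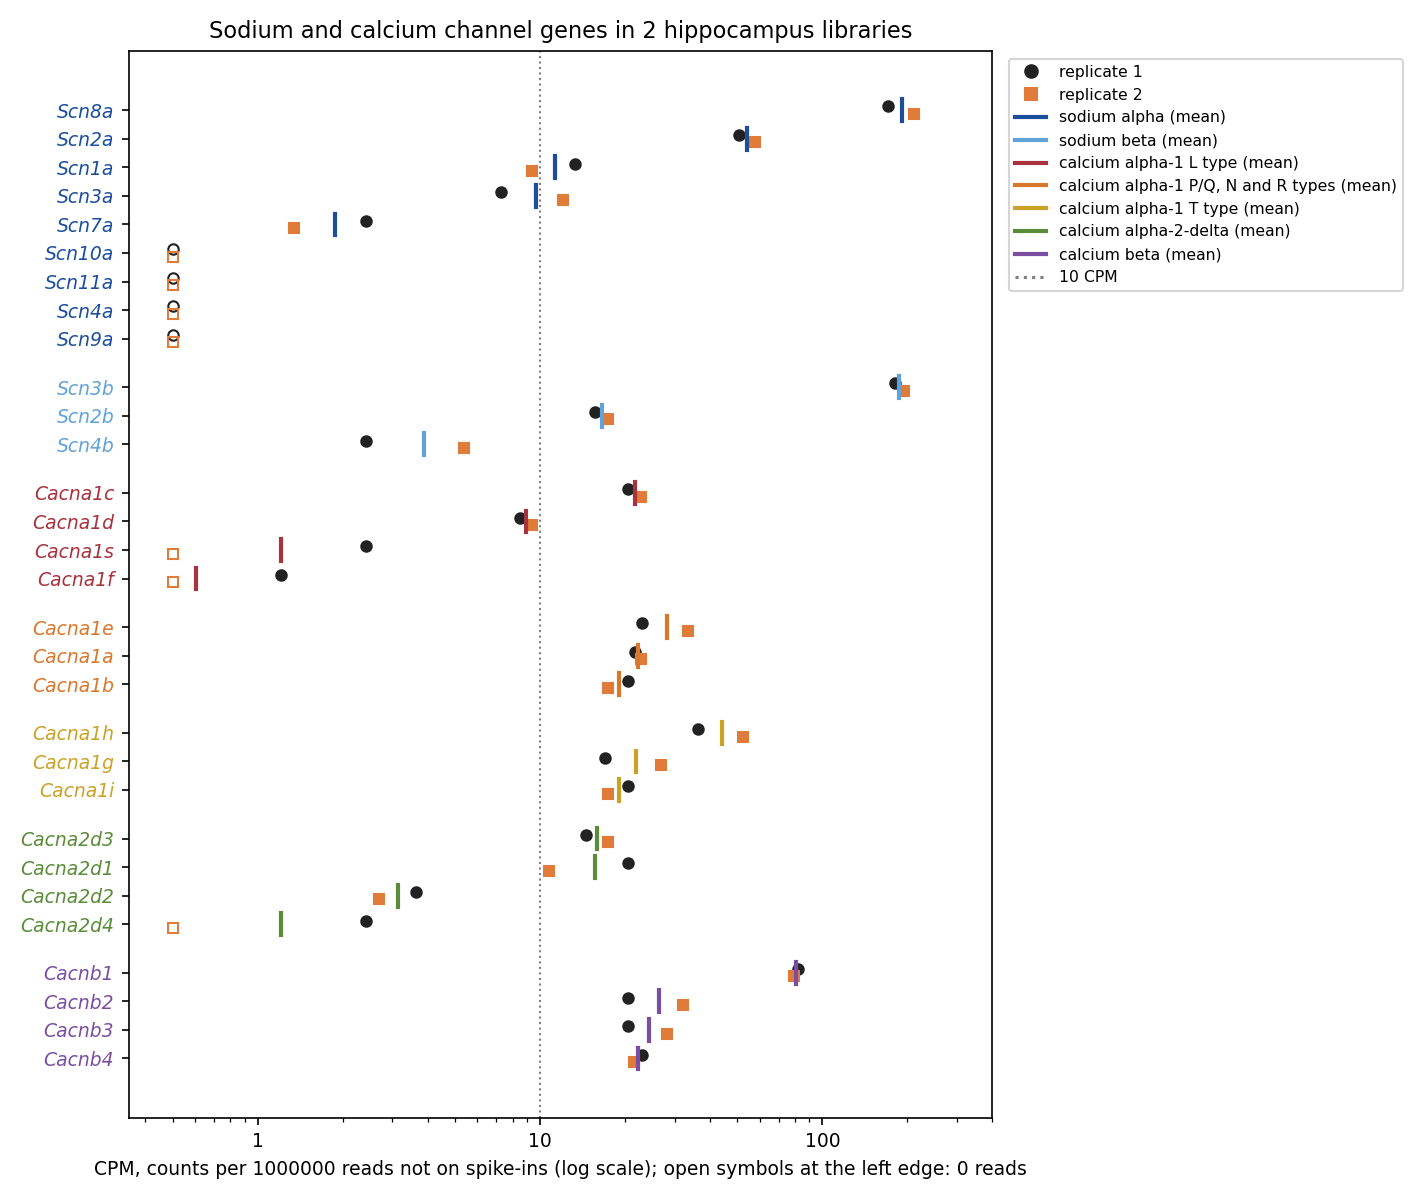
CPM (log axis) of each of the 30 genes, with circles for replicate 1, squares for replicate 2 and a coloured bar for their mean, grouped by subunit class and ordered by mean. Scn8a and Scn3b lie near 190 CPM, most other genes between 10 and 100, and the 4 genes with open symbols in both libraries had no read.

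No member was called as different between the libraries. Of 17 members with at least 20 reads together, 0 passed. Each gene's reads were set against the ratio of the totals in an exact binomial test, two-sided, and a call needed a 2-fold difference and an adjusted p (Benjamini-Hochberg) under 0.05. Among the 17, 0 had an unadjusted p under 0.05. Over all 9062 genes tested, 28 were called, or 0.309%, and 672 (7.42%) had an unadjusted p under 0.05. The smallest p among the members was 0.0638, adjusted 0.706 by that exact binomial test, for Scn8a, and the largest log2 difference was 0.89 for Cacna2d1, with 17 and 8 reads. This test compares the libraries and no conditions.

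Scn8a led the sodium channel alpha subunits. It encodes the channel that clusters at the axon initial segment and at nodes of Ranvier (ENSMUSG00000023033.14, mm10 chr15:100869858-101045938, plus strand, longest coding transcript 11436 bases). It had 141 reads in replicate 1 and 158 in replicate 2, or 191 ± 29.2 CPM (SD, n = 2). Scn2a, the alpha subunit prominent in the axons of excitatory neurons (chr2:65620771-65767447, plus strand, 8935 bases), had 42 and 43 reads and 54.2 ± 4.86 CPM. In both libraries Scn8a stood above Scn2a and Scn2a above the rest, with no overlap of their values.

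Scn1a, the main sodium channel of many inhibitory neurons, had 11 and 7 reads (11.3 ± 2.77 CPM, 8386 bases). Scn3a, best known from the developing brain, had 6 and 9 reads (9.67 ± 3.40 CPM, 9560 bases). Their ranges overlapped, so these data give no order between them. Scn7a, which is gated by sodium rather than by voltage and is known from glia and sensory organs, had 2 and 1 reads (1.88 ± 0.762 CPM). Scn4a of skeletal muscle and the peripheral channels Scn9a, Scn10a and Scn11a had no read in either library, which places each under the limit for a count of 0 and does not show that they were absent.

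The sodium channel alpha messages were read from a first to a last exon more often than any class of calcium channel alpha-1 message. A read was taken to reach the 5′ end where its deposited model began in, or up to 100 bases upstream of, a first exon of an annotated protein-coding transcript. Ends and lengths are those of the model, so bases of a first or last exon that a read lacked would not show. A read cut short in an internal exon that lies within such a first exon also counted. By this measure 46.5% and 57.8% of sodium alpha reads reached it (52.2% ± 7.96, SD, n = 2), against 75.4% ± 0.207 for all annotated genes. Both ends were spanned by 209 of the 420 sodium alpha reads, all of them with at least 20 exons. Scn8a gave 151 of these, Scn2a 39, Scn1a 9, Scn3a 9 and Scn7a 1. The longest Scn8a model spanning both ends was 11293 bases long and the model with the most exons had 28, and the longest of Scn3a was 11079 bases.

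The long reads showed which of a pair of alternative 92-base coding exons each sodium channel message carried. These exons encode part of the first voltage sensor, and in Scn2a the upstream copy is known as the neonatal form and the downstream copy as the adult form. They were chosen for description after their counts were seen, because with most reads on 1 side they fall outside the rule used below. Scn2a carried the downstream exon (chr2:65682690-65682781) in 19 and 22 reads and the upstream exon in 2 and 0, so that the downstream share was 90.5% in replicate 1 and 100% in replicate 2. The exact 95% intervals (Clopper-Pearson) of these shares ran from 69.6 to 98.8% and from 84.6 to 100%. Scn8a carried the downstream exon (chr15:100959603-100959694) in 61 and 82 reads and the upstream exon in 3 and 7, a downstream share of 93.7% ± 2.25 (SD, n = 2). A further 3 Scn8a reads, 1 and 2, kept the stretch from the start of the upstream exon to the end of the downstream exon as 1 exon. Scn3a, on the minus strand of chromosome 2, carried the downstream exon in 3 and 6 reads and the upstream exon in none, and with so few reads the 95% intervals of the upstream share reached up to 70.8% and 45.9%. Scn1a, with a single such exon among its reads, carried it in 6 and 3.

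The downstream exons of the 2 leading genes are shown because most reads that covered the site carried them. They are the mm10 reference sequences of the GENCODE M21 transcripts, not consensus sequences of the reads, written 5′ to 3′ on the strand of the gene, with capitals at the bases that differ between the 2 genes.
Scn2a downstream: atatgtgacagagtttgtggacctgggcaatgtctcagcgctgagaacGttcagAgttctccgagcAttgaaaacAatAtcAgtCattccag
Scn8a downstream: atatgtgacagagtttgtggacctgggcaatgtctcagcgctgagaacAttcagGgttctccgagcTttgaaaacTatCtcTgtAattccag

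The downstream exons of Scn2a and Scn8a differed at 7 of 92 bases, each in another of the 30 whole codons, and none of the 7 changes a residue. The downstream exon of Scn3a (chr2:65525695-65525786) differed from that of Scn2a at 0 bases, so these 92 bases alone do not tell the messages of the 2 genes apart.

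Scn8a also kept its 123-base coding exon in nearly all reads. This exon (chr15:101024261-101024383) is known to be left out, or replaced by an exon that ends the reading frame early, in cells other than neurons. It was carried by 81 and 104 reads and passed over by 1 and 4, a share of 97.5% ± 1.76 (SD, n = 2). Among the 5 reads without it, 2, 1 in each library, carried a 68-base annotated exon of the preceding intron in its place. The reference sequence of the retained exon, given because 185 reads carried it and shown with no capitals because it is compared with no other exon, was as follows.
Scn8a exon of 123 bases: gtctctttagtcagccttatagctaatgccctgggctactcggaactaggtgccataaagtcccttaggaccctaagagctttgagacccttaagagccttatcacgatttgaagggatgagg

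Scn8a reads began at different first exons. Of the spliced reads that began at a first exon of any annotated transcript, 62.7% and 64.6% used the exon that ends at position 100871068 of chromosome 15 (63.6% ± 1.34, SD, n = 2), which belongs to Scn8a-203. The exon that ends at 100870743, further upstream, was used by 25.4% and 26.0% (25.7% ± 0.473). Of 67 and 96 such reads, 5 and 4 began in another annotated first exon, far downstream and ending at 100936600. The same stretch is an internal exon in nearly all reads from the first exons further upstream. Reads cut short inside it cannot be told from starts there, so use of this first exon was not shown. The order of these 3 exons by count was the same in both libraries. After the upstream first exon, a noncoding exon of 150 bases (chr15:100899392-100899541, part of the 5′ UTR) was kept in 1 and 4 reads and skipped in 16 and 20, a share of 11.3% ± 7.63 (SD, n = 2). Over all spliced reads that cross the site, whatever their first exon, 3.08% ± 2.00 kept it.

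Full-splice reads, which match an annotated chain of introns, combine annotated splice sites in an unannotated way or use an unannotated splice site, numbered 65 and 90 for Scn8a. They fell into 28 chains of introns, of which 6 were read in both libraries. Scn8a-203, with 27 exons, took 33 and 44 reads, or 49.8% ± 1.33 of full-splice reads (SD, n = 2). An unannotated combination of 27 exons that joins the upstream first exon to the downstream 92-base exon took 15 and 15 reads, or 19.9% ± 4.53. Every other chain had under 10% in each library.

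In Scn2a the leading message was an unannotated combination. A chain of 27 exons with a model length of 8935 bases took 12 and 18 of the 18 and 21 full-splice reads (76.2% ± 13.5, SD, n = 2). The annotated chain Scn2a-201, which carries the upstream 92-base exon, took 2 and 0. Of the annotated coding transcripts with the downstream exon, Scn2a-204 and Scn2a-205, neither has this chain. In 4 and 1 reads the second exon was 211 bases long instead of 318 (12.6% ± 10.4 of the reads with the same exon on either side), through an unannotated acceptor site after position 65670496, where the annotated coding sequence starts, so the annotated start codon was not in those reads. The share was 20.0% in replicate 1 (95% interval 5.73 to 43.7%) and 5.26% in replicate 2 (0.133 to 26.0%).

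Scn3b was the other gene above 100 CPM. It encodes a single-span beta subunit that associates with the alpha subunit without a disulfide bond (chr9:40269217-40291618, plus strand, 4150 bases), and it had 149 and 145 reads, or 187 ± 10.1 CPM (SD, n = 2). Scn2b, a beta subunit linked to the alpha subunit by a disulfide bond (4656 bases), had 13 and 13 reads and 16.6 ± 1.21 CPM. Scn4b, the subunit known for resurgent current, had 2 and 4 reads and 3.89 ± 2.08 CPM. The 3 did not overlap in either library, but with full-splice models only Scn2b was at 0 and Scn4b at 4.93 CPM.

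All 26 Scn2b reads sat in 1 model of 1 exon and 2750 bases in each library, within the last exon (chr9:45127319-45130068), so no read showed a splice junction of this gene and no 5′ end was reached. Scn3b differed from that picture, with 221 of 294 reads reaching the 5′ end and 220 spanning both ends. Of the 6 Scn4b reads, 5 spanned both ends as the annotated chain of 5 exons.

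Scn3b messages divided mainly at a short intron of the 3′ UTR. This 90-base intron (chr9:40288454-40288543) lies past position 40288434, where the coding sequence of Scn3b-201 and Scn3b-203 ends. It was spliced out in 66 and 58 spliced reads and kept in 46 and 48, a spliced share of 58.9% and 54.7% (56.8% ± 2.98, SD, n = 2). Among the 102 and 90 full-splice reads, Scn3b-201, which lacks those bases, had 40.3% ± 8.23 and Scn3b-203, which keeps them, had 32.1% ± 6.52. The order of these isoforms turned between the libraries, with 47 against 28 reads in replicate 1 and 31 against 33 in replicate 2. Scn3b-202, from a first exon that ends 445 bases further downstream, had 14 and 12 reads (13.5% ± 0.277). Over all spliced reads that began at an annotated first exon, the leading exon took 75.4% ± 2.19 and that of Scn3b-202 took 22.8% ± 2.07. The first exon of Scn3b-202 ends at the same base as an internal exon of 80 bases, which 82 and 70 reads of other Scn3b messages carried. Reads cut short inside that internal exon cannot be told from starts of Scn3b-202, so both of its shares may hold such reads.

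**Figure D2:**
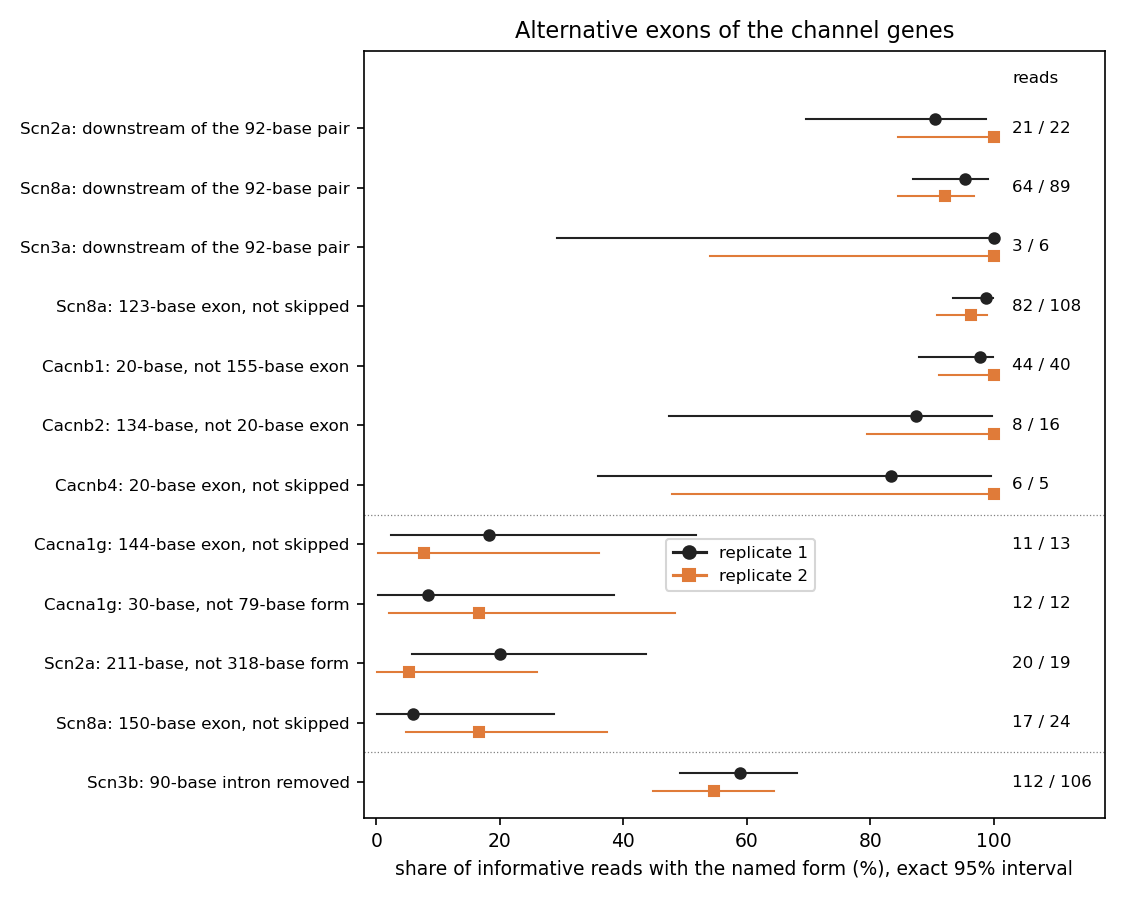
Share of informative reads (%) with the named form of each alternative exon or intron, with circles for replicate 1, squares for replicate 2, exact 95% intervals as lines and the number of reads in each library at the right. The upper group, chosen after its values were seen, lies at 83.3% or above, the 4 exons that meet the rule, counted in reads with the same exon on either side, lie at 20.0% or below, and the Scn3b intron lies at 58.9% and 54.7%.

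The calcium channel alpha-1 genes were spread over a narrower range of levels. Cacna1h, a T-type subunit, which opens at low voltage and supports burst firing, had 30 and 39 reads and 44.3 ± 11.3 CPM (SD, n = 2, 8230 bases). Among the other T-type genes, Cacna1g had 14 and 20 reads (21.9 ± 6.99 CPM, 8383 bases) and Cacna1i 17 and 13 (19.0 ± 2.21 CPM, 9781 bases). The values of Cacna1h lay above those of its relatives in both libraries, and those of Cacna1g and Cacna1i overlapped. Without reads in genomic models, the deposited class for reads that match no annotated splicing, Cacna1g had 21.2 CPM and Cacna1i 2.81 CPM.

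The genes of the P/Q, N and R types drive transmitter release. Cacna1e, the R-type subunit, had 19 and 25 reads (28.3 ± 7.46 CPM, 14921 bases), Cacna1a, the P/Q-type subunit, 18 and 17 (22.3 ± 0.727 CPM, 7926 bases) and Cacna1b, the N-type subunit, 17 and 13 (19.0 ± 2.21 CPM, 9736 bases). Their order was the same in both libraries, but neighbours were at most 8 reads apart within a library. The order depended on reads in genomic models, without which Cacna1a had 17.5 CPM, Cacna1b 9.09 CPM and Cacna1e, then the lowest, 4.21 CPM.

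Among the L-type genes, whose channels couple activity to gene regulation, Cacna1c had 17 and 17 reads (21.7 ± 1.58 CPM, 13162 bases) and Cacna1d 7 and 7 (8.93 ± 0.651 CPM, 8688 bases). The values of Cacna1c were above those of Cacna1d in both libraries, but without genomic models the order turned, with 4.95 CPM for Cacna1c and 7.76 CPM for Cacna1d. Cacna1f of the retina had 1 read and Cacna1s of skeletal muscle 2, all in replicate 1, and both are under the limit for a count of 0. The 2 Cacna1s reads belonged to a deposited model of 2 bases (chr1:136119529-136119530), so their structure cannot be read.

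Most reads of the calcium alpha-1 genes did not reach the 5′ end. The share that did was 15.3% ± 3.91 for the T type, 5.51% ± 0.0714 for the P/Q, N and R types and 3.94% ± 0.327 for the L type (SD, n = 2). Of 293 reads in these 3 classes, 13 spanned both ends. Cacna1h gave 11 of them, Cacna1g 1 of 36 exons and Cacna1d 1 of 49 exons, the most exons of any model that spanned both ends. No read of Cacna1a, Cacna1b, Cacna1c, Cacna1e or Cacna1i did, so whole messages of these genes were not seen at this depth.

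Reads of Cacna1e and Cacna1i were mostly single exons at the 3′ end. Of 44 Cacna1e reads, 31 were single-exon reads over a last exon, and of 30 Cacna1i reads, 26 were. Cacna1c had 14 such reads and 12 single-exon reads elsewhere in its 609 kb. Cacna1a had 6 and 4 of 35, and its spliced reads held up to 31 exons in replicate 1 and 29 in replicate 2. Genomic models took 64.4% ± 8.51 of L-type reads and 59.6% ± 3.12 of P/Q-, N- and R-type reads, against 10.4% ± 0.110 for all annotated genes.

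Cacna1h was the calcium alpha-1 gene with enough full-splice reads to compare isoforms, with 12 and 13. The full-length annotated Cacna1h-201, of 35 exons, took 3 and 5 reads (31.7% ± 9.52, SD, n = 2), and Cacna1h-203, an annotated transcript of 2 exons at the 5′ end of the gene, took 5 and 3 (32.4% ± 13.1). Their order turned between the libraries, and their intervals overlapped widely.

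Cacna1g carried both alternative exons of the calcium alpha-1 genes that met the rule for exon events. The rule asked for at least 10 informative reads in each library and a mean share between 10 and 90%, and 4 events in all met it, the others being the Scn2a second exon and the Scn8a 150-base exon. A coding exon of 144 bases (chr11:94414931-94415074, minus strand), annotated in Cacna1g-207, was carried by 3 and 3 reads and passed over by 10 and 12, a share of 21.5% ± 2.18 (SD, n = 2) whatever the neighbouring exons, a count added after seeing the data, with exact 95% intervals of 5.04 to 53.8% and 4.33 to 48.1%. The event as the rule defines it, with the same exon on either side, holds 2 and 1 of these reads against 9 and 12 (12.9% ± 7.42). An exon was 30 bases long in 1 and 2 reads instead of 79 (12.5% ± 5.89), through another splice site. With full-splice models only the share was 37.5% for the 144-base event and 32.5% for the 30-base form, so neither share is well fixed by 6 and 3 carrying reads. The 144-base exon, a multiple of 3 bases and rich in G and C at 68.1%, is shown because most reads over the site lack it.
Cacna1g exon of 144 bases: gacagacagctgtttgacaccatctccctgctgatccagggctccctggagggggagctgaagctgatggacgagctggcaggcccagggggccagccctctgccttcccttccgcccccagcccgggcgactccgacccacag

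The alpha-2-delta subunits, which carry the binding site of gabapentin in Cacna2d1 and Cacna2d2 and help place channels at terminals, each had a mean of 16.0 CPM or less. Cacna2d3 had 12 and 13 reads (16.0 ± 2.07 CPM, SD, n = 2, 3695 bases), Cacna2d1 17 and 8 (15.6 ± 6.95 CPM, 7436 bases), Cacna2d2 3 and 2 (3.16 ± 0.669 CPM, 5807 bases) and Cacna2d4 2 and 0. The values of Cacna2d3 and Cacna2d1 overlapped, and both stood above those of Cacna2d2 in each library. With full-splice models only, Cacna2d3 had 5.85 CPM and both Cacna2d1 and Cacna2d2 were at 0.

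Many Cacna2d3 reads began at the 5′ end and stopped inside the gene. Of its 25 reads, 12 reached the 5′ end, and 10 of these did not reach a last exon, while 2 spanned both ends, 1 of them with 37 exons and 3680 bases. Cacna2d1 showed the opposite picture, with 22 of 25 reads at the 3′ end only and 2 at the 5′ end only. Among the 30 genes together, 39 of 1337 reads were at the 5′ end only and 688 at the 3′ end only, so that a lost 5′ end was the usual form of an incomplete read.

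Cacnb1 led the calcium channel beta subunits, which bind the alpha-1 subunit from inside the cell (chr11:98001508-98023034, minus strand, 3396 bases). It had 68 and 59 reads, or 80.7 ± 2.21 CPM (SD, n = 2). Cacnb2 had 17 and 24 reads (26.4 ± 8.22 CPM, 3945 bases), Cacnb3 17 and 21 (24.4 ± 5.38 CPM, 2734 bases) and Cacnb4 19 and 16 (22.2 ± 1.08 CPM, 8225 bases). Cacnb1 stood above the others in both libraries, and the other 3 overlapped. In Cacnb1, 18 and 14 reads belonged to genomic models of 274 and 1 bases at the end of the gene. Without them the counts would be 50 and 45, still the highest of the 4.

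Cacnb1 messages ended in 2 ways. Of 44 and 41 full-splice reads, Cacnb1-201, with 14 exons and a last exon of 1855 bases, took 26 and 16 (49.1% ± 14.2, SD, n = 2). Cacnb1-205, with 13 exons and a last exon of 390 bases that runs on from a 186-base exon of the longer form, took 15 and 22 (43.9% ± 13.8). The leading form differed between the libraries, and the intervals of Cacnb1-201, 43.2 to 73.7% and 24.2 to 55.5%, overlapped.

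The 4 beta genes share a 20-base exon in the variable stretch between their folded domains, and the form that most reads carried differed between Cacnb1 and Cacnb2. It sits between constant exons and can be exchanged for a longer exon or left out, which alters the linker of the protein. Cacnb1 carried the 20-base exon (chr11:98010627-98010646) in 43 and 40 reads and the alternative exon of 155 bases in 1 and 0. Cacnb2 carried its alternative of 134 bases in 7 and 16 reads and the 20-base exon (chr2:14968218-14968237) in 1 and 0. Cacnb4 carried the 20-base exon (chr2:52465894-52465913) in 5 and 5 reads and passed over it in 1 and 0. No Cacnb3 read carried it (chr15:98640959-98640978) as an exon of its own, and 1 and 2 reads passed over it. These exons were chosen after their counts were seen. Their sequences, with capitals at the 6 of 20 bases that are not the same in all 4 genes, show how far the exon is shared.
Cacnb1: cCaaAcagaagcaGaaATCg
Cacnb2: cAaaGcagaagcaGaaGTCg
Cacnb3: cCaaGcagaagcaAaaGCAg
Cacnb4: cAaaAcagaagcaGaaAGTg

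No Cacnb3 molecule read in full matched an annotated chain. Its 5 and 5 full-splice reads, all of which reached the 5′ end, had 10 different chains of introns with 8 to 12 exons, and 7 of the 10 kept an intron that a coding transcript removes. The annotated coding transcripts of Cacnb3 have 12 or 13 exons. A further 6 and 10 reads of Cacnb3 were genomic. Among all 30 genes, 145 chains were read in 20 genes, and 27 of them were read in both libraries.

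Cacnb2 reads began mostly at first exons of transcripts that GENCODE does not call protein-coding. Of the 13 and 19 spliced reads that began at an annotated first exon, 7 and 12 used the exon of Cacnb2-207 and Cacnb2-211, which are annotated as retained introns, and 3 and 7 used that of Cacnb2-210, a processed transcript. The exon used by Cacnb2-201 and Cacnb2-202 had 3 and 0. Counting only coding starts, 7.32% of 41 reads reached the 5′ end, and counting those of any transcript 32 of 41 did. For Cacnb4, the 2 coding first exons had 3 and 3 reads and 3 and 2 reads.

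**Figure D3:**
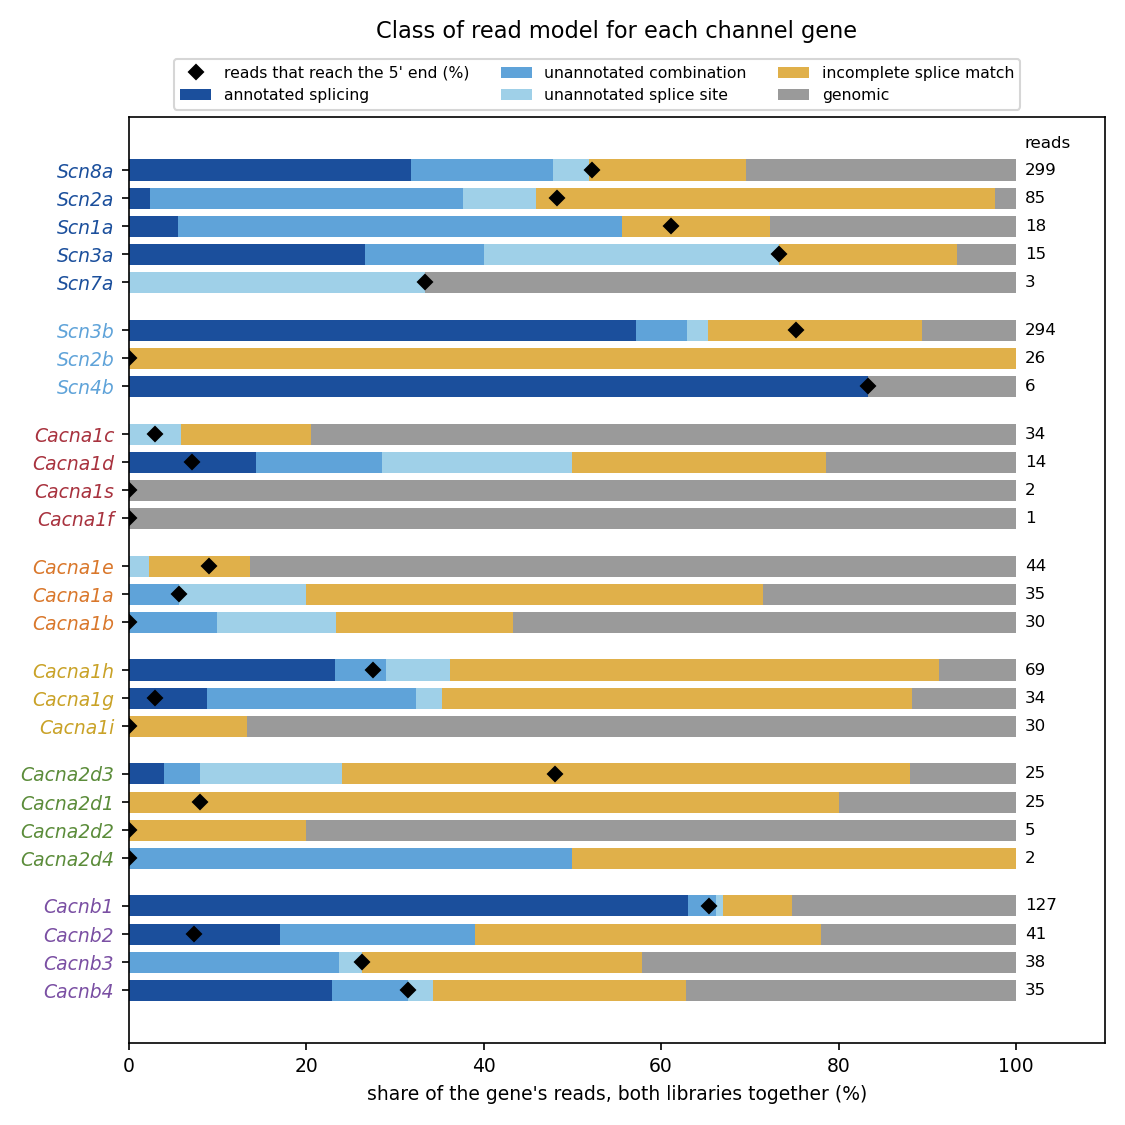
Share of each gene's reads (%, both libraries together) by deposited class of model, with a diamond at the share that reached the 5′ end and the number of reads at the right. Blue shades are full-splice classes, which lead in Scn8a, Scn3b and Cacnb1, while incomplete and genomic models take nearly all reads of Cacna1e, Cacna1i, Cacna2d1 and Scn2b.

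Over all 30 genes, full-splice models took 45.2% ± 1.38 of reads (SD, n = 2), against 77.2% ± 0.359 for all annotated genes. Incomplete splice matches, whose introns are a run within an annotated chain, took 28.7% ± 5.59 against 12.4% ± 0.469, and genomic models 26.1% ± 6.97 against 10.4% ± 0.110. The genomic share was 31.1% in replicate 1 and 21.2% in replicate 2. Scn3b held 30 single-exon reads over its last exon in each library, deposited as genomic in replicate 1 and as an incomplete splice match in replicate 2, and without these reads the shares were 27.8% and 22.2%. Scn8a had 34 genomic single-exon reads in 1 model in each library, of 2153 and 4237 bases at the end of the gene.

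By subunit class, the share of reads that reached the 5′ end was 69.3% ± 3.74 for the sodium beta genes, 52.2% ± 7.96 for sodium alpha, 44.4% ± 3.85 for calcium beta and 25.5% ± 6.96 for alpha-2-delta (SD, n = 2), above the 3 calcium alpha-1 classes given before. Over the 30 genes it was 44.5% ± 0.857.

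Set beside genes of similar length, most of the channel genes had fewer reads at the 5′ end. Among all 8759 genes with at least 20 reads, the median share fell from 92.4% for a longest coding transcript under 2 kb to 86.7% at 2 to 4 kb, 74.2% at 4 to 6 kb, 54.8% at 6 to 8 kb and 37.9% at 8 kb or more. Of the 17 channel genes with that many reads, 3 lay above the median of their length, Scn3b with 75.2%, Scn2a with 48.2% and Scn8a with 52.2%. Scn8a was placed by its longest transcript of 11436 bases, while its leading models were 7030 and 7095 bases long, and 52.2% is below the 54.8% of genes of 6 to 8 kb. The 4 genes of 2 to 4 kb, Cacna2d3, Cacnb1, Cacnb2 and Cacnb3, ran from 7.32 to 65.4%, and the 9 genes of 8 kb or more had a median of 9.09%. The 7.32% is that of Cacnb2 by coding starts alone, and 32 of its 41 reads began at a first exon of any annotated transcript. These are descriptions with no test, since genes in a bin are not replicates.

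**Figure D4:**
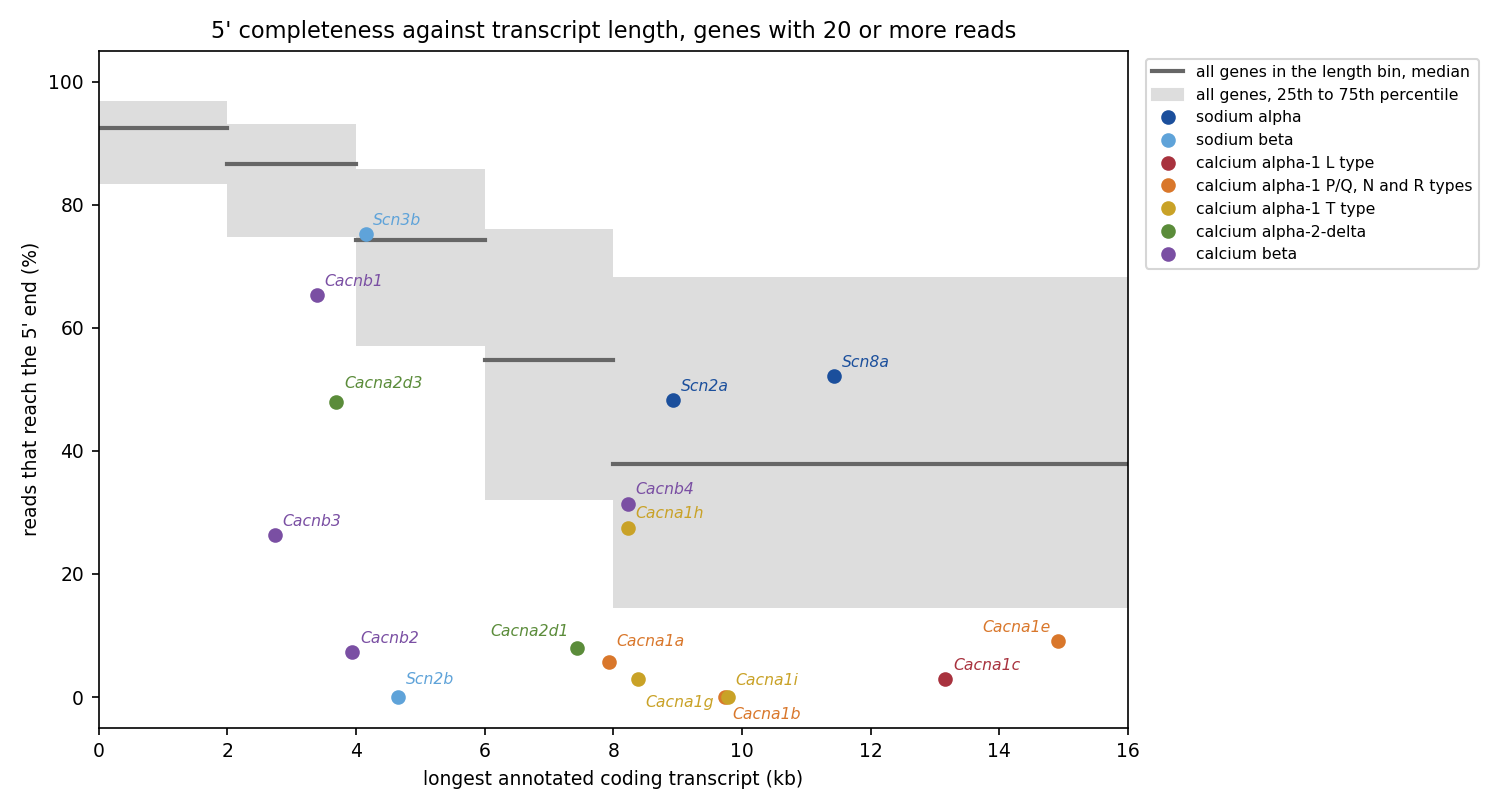
Share of reads that reached the 5′ end (%) against the longest annotated coding transcript (kb) for the 17 channel genes with at least 20 reads, with lines for the median and shading for the middle 50% of all genes in each length bin. Scn3b, Scn2a and Scn8a lie above the line of the bin of their longest transcript, and 5 genes of 8 kb or more lie under 10%.

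Antisense models, which the authors' tables list as loci of their own on the other strand, were found within the bounds of 20 of the 30 genes, and in each of the 20 in both libraries. In either library, they were found at 19 of the 26 members with reads and at 8710 of the 14730 protein-coding genes with reads. Among genes of 100 kb or more, the counts were 14 of 17 members and 2031 of 2281 protein-coding genes. They held 440 and 383 reads, against 663 and 674 of the genes themselves, and were not added to any gene. Single-exon models made up all but 4 of these 823 reads. The most were at Cacna1e, with 84 and 68, Cacna1d, with 66 and 79, Cacnb2, with 71 and 43, and Cacna2d1, with 26 and 38. At Cacna1d the antisense reads outnumbered the 14 reads of the gene 10.4 times, and 1 locus held 45 of them in replicate 1 and 1 held 49 in replicate 2. At Cacna1e 132 of the 152 antisense reads overlapped an annotated exon, while at Cacnb2 110 of 114 and at Cacna2d1 all 64 lay in introns.

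Antisense reads were also set against the length of the genes. Per 100 kb of gene, the members with reads held 15.7 antisense reads against 18.2 over all protein-coding genes with reads. The 17 members of 100 kb or more held 15.8 and the 2281 protein-coding genes of that size 11.0. More antisense than sense reads were found at 9 of 26 members (34.6%) and at 8.99% of all protein-coding genes with reads, and at 8 of 17 (47.1%) and 24.8% among those of 100 kb or more. The sources used here do not say whether the preparation kept the strand of every read, and its part in these counts was not tested.

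**Figure D5:**
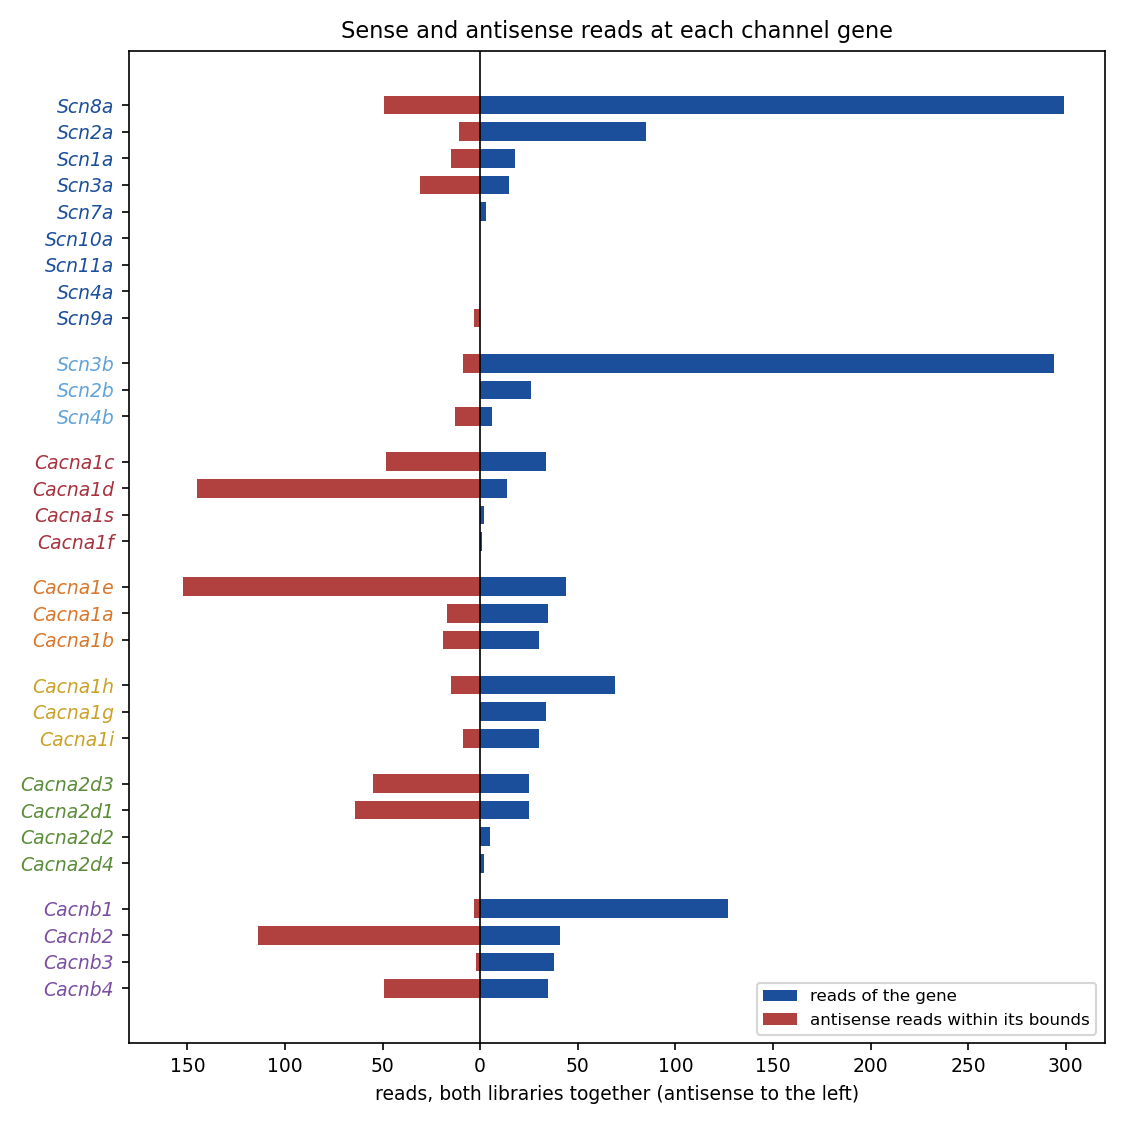
Reads of each gene to the right and antisense reads within its bounds to the left, both libraries together, for the 30 genes grouped by subunit class. The antisense bars exceed the sense bars at 9 of the 26 genes with reads, Cacna1d, Cacna1e and Cacnb2 among them, while Scn8a, Scn3b and Cacnb1 have mostly sense reads.

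Among 33 other genes of the channel complexes, 27 were read in both libraries, 4 had no read (Cacng1, Catsper1, Stac3 and Rrad) and 22 reached 10 CPM, with a median of 22.1 CPM. The highest were Tspan13, a tetraspanin that binds calcium channels, with 339 ± 21.1 CPM (SD, n = 2), and Fgf13, an intracellular partner of sodium channels, with 199 ± 6.18 CPM. Ank2, an ankyrin that anchors membrane proteins, had 148 ± 43.2 CPM, Sptbn4, the spectrin of the axon initial segment, 121 ± 11.9 CPM, and Stx1a, the syntaxin that binds presynaptic calcium channels, 113 ± 2.54 CPM.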

How the data were processed

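Count tables and structure files were used for each library. The authors deposited raw read counts for each transcript model, without normalization, and model structures whose source is TALON per the file headers; other deposited columns give the exon number and length of a model. Alignments were to mm10 with GENCODE M21 as annotation, per the text files deposited with them. The sources used here do not name the aligner, the sequencing platform, the strand handling or the treatment of reads from similar genes, so reads over stretches that related genes share may have been split between them.

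Rows were taken by gene name and counts summed over all models of a gene. Depth was 836240 and 752291 reads, of which 9644 and 6799 were on spike-ins, recognised by their chromosome. All 40294 annotated models had the introns of GENCODE M21. Models were joined between libraries by their chain of introns. Model ends are as deposited, and 969 and 913 models, with 1.22% and 1.07% of reads, were under 50 bases long, so the ends of single-exon models are not those of single reads. Annotated models such as Scn3b-201 and Scn4b-201 run over the full bounds of the gene, so their ends and lengths may not be those of single reads either. Last exons were those of annotated coding transcripts. The exact binomial test (scipy 1.17.1) and the exact Clopper-Pearson 95% intervals take reads as independent, which reads without molecular identifiers may not be, and cover counting error only. TMM factors came from edgeR 4.0.16, as an alternative scaling. The test was also run on simulated independent counts, which cannot show how it behaves where reads are not independent. Sequences were cut by a script from the GENCODE M21 transcripts. Named were all 30 genes, the 2 leading isoforms of genes whose full-splice reads numbered 10 or more per library, all exon events that met the rule and, as stated, exons chosen after their values were seen. Members, lists and rules were chosen with earlier results of these data known. With 1 group, no comparison between groups was possible. Some genes and exon sequences are not reported here.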

Additional observations from a re-analysis of the deposited data

How the results depend on the processing

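Members detected numbered 23 in the main run, 21 without genomic models, 17 with full-splice models only and 20 with a minimum of 5 reads in each library. The number was 23 with models under 50 bases left out, 26 in replicate 1 alone and 23 in replicate 2 alone. Each of these moved by less than 1.5 times. No member was called between the libraries under any fold limit, read minimum, scaling or class tried. With full-splice models only, 9 members reached 10 CPM instead of 18 and the median member level was 5.39 CPM. Without genomic models that median was 8.43 CPM, the share of full-splice reads was 61.3% and the share that reached the 5′ end 60.4%. With first exons of any annotated transcript, the latter was 49.8%. With annotated models only, 2 members instead of 4 had at least 2 isoforms of 10% or more. Exon events numbered 0 with at least 20 reads in each library and 2 with full-splice models only. Leaving out 1 library gave 2 events without replicate 2 and 3 without replicate 1. Leaving out models under 50 bases was chosen after seeing the data. Scaling by TMM or by totals with spike-ins moved 0 of 30 single levels by more than the spread between libraries, leaving out genomic models moved 13. No paired analysis was possible because the study has 1 group. With 2 libraries and 1337 member reads, counting error limits most single genes.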
